A study of Mus musculus with 9 samples.

Results

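The genes described here are the cytosolic RNA sensors and the kinase PKR. They were chosen by name, as Ddx58 (which encodes RIG-I), Ifih1 (MDA5), Dhx58 (LGP2), Mavs, Eif2ak2 (PKR) and Ddx60, and are 6 of the 54532 genes in the count tables. These genes and the gene lists below were chosen with earlier results of these data known. Shares of calls among them are therefore descriptions, not independent tests. All 6 were found, and all 6 passed the filter on low counts that left 16646 genes for testing. Their levels were followed in mouse kidney by RNA-Seq of polyA RNA in 3 groups of 3 libraries, all on the C57BL/6J background.

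The first group was wild-type (WT) mice. The second was Trex1-/- mice given PBS, and the third was Trex1-/- mice given SN-011 for 2 weeks. TREX1 is an exonuclease that clears DNA from the cytosol. SN-011 blocks STING, which relays the signal of the cytosolic DNA sensor cGAS to the interferon genes. Per the methods, both Trex1-/- groups were about a month old when treatment began, received daily injections into the peritoneum and came from crosses of heterozygous mice. The vehicle also held Tween 80, which the label PBS leaves out. WT mice were purchased over a range of several weeks of age, so their ages may differ from those of the knockouts, and the sources used here do not state that they were littermates or were injected. The knockout is not restricted to the kidney, so any blood-borne cells in the tissue carry it too.

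RIG-I and MDA5 are helicases that bind double-stranded RNA in the cytosol and signal through MAVS, an adaptor on the mitochondrial surface, to the kinases TBK1 and IKK epsilon. These kinases activate IRF3 and IRF7, which induce interferon genes. LGP2 belongs to the same helicase family but lacks the signalling domain and regulates both sensors. PKR binds double-stranded RNA and phosphorylates the translation factor eIF2 alpha, and DDX60 is a helicase reported as a cofactor of RIG-I. Apart from Mavs, these genes are known as interferon-stimulated genes. The comparisons address how transcripts of the RNA-sensing machinery stood in a mouse whose defect lies in DNA clearance, and how they stood under a STING antagonist.

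The library totals ran from 16118813 to 21928965 counts, so the members were read by 52 to 2402 counts per library. Trex1 itself was listed at 0 counts in all 9 libraries, WT included, and 100% of its exonic bases are shared with Atrip on the same strand, so the genotype rests on the labels. Kidney markers were abundant, with 6 proximal tubule markers summing to 7290 to 9410 CPM (counts set relative to a TMM-scaled library size). Transcripts of the Y chromosome were present in 3 of 3 PBS libraries but only in SN-011 replicate 2 and WT replicate 3, and the members are therefore also given from a fit with a covariate for such reads (the Y-linked term). SN-011 replicate 2 stood apart most within its group, with Pearson's r of 0.966 and 0.967 of log2 CPM to the other SN-011 libraries, against 0.983 between those and 0.986 to 0.993 among PBS libraries. WT replicate 3 was at 0.979 and 0.978 to the other WT libraries, against 0.990 between those. The libraries are not stated to be separate animals, and p-values measure the spread between these libraries.

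Interferon-response elements near the start sites of the genes were examined first, because interferon-stimulated genes are bound there by STAT and IRF factors. RefSeq promoter windows of GRCm38.p6, from 250 bases before to 50 bases after the start, were found for 5 of the 6 genes and not for Dhx58. The motif searched, on both strands, was the core of the interferon-stimulated response element, written GAAA, any 2 bases, GAAA. Of all 32817 promoter windows, 3.43% held it. It was present in the windows of Ddx58, Ifih1, Eif2ak2 and Ddx60, and these letters were not in the window of Mavs. The 30-base stretches around the matches are shown 5′ to 3′ on the strand of the gene, with the match in capitals.
Ddx60, 53 to 44 bases before the start: gtgatgaatgGAAACCGAAActtaaagctt
Ddx60, 19 to 10 bases before the start: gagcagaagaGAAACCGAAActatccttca
Ifih1, 33 to 42 bases after the start: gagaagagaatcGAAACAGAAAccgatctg
Eif2ak2, 19 to 28 bases after the start: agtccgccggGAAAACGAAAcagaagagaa
Ddx58, 3 to 12 bases after the start, match on the opposite strand: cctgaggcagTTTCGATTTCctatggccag
Ddx58, 60 to 52 bases before the start, spaced by 1 base: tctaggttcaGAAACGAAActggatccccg

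The stretches lie at chr8:61928024-61928053 and chr8:61928058-61928087 (plus strand) for Ddx60, at chr2:62646206-62646235 (minus strand) for Ifih1, at chr17:78882535-78882564 (minus strand) for Eif2ak2, and at chr4:40239804-40239833 and chr4:40239866-40239895 (minus strand) for Ddx58. By GENCODE vM21, the matches after the start lie inside the bounds of the genes Ddx58, Eif2ak2 and Ifih1. The last Ddx58 stretch holds a variant with 1 base between both GAAA copies, which was searched for after its sequence was seen and was found in 3.17% of all windows. The core of the gamma-activated site, TTC, any 3 bases, GAA, found in 8.29% of all windows, was present once among the members, in Eif2ak2. A match describes the sequence only, and no binding was measured.

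Trex1-/- PBS against WT was the first comparison. Of the 6 genes, 5 rose in Trex1-/- kidneys, by 2.35-fold to 6.00-fold, and Mavs did not pass the test. Among all genes tested, 1.44% were called higher. A call is an edgeR quasi-likelihood adjusted p under 0.05 over all 16646 genes. For these 5 genes every PBS library stood above every WT library, as was so for 13.1% of all genes. The plot of CPM by library shows the 6 genes.

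**Figure D1:**
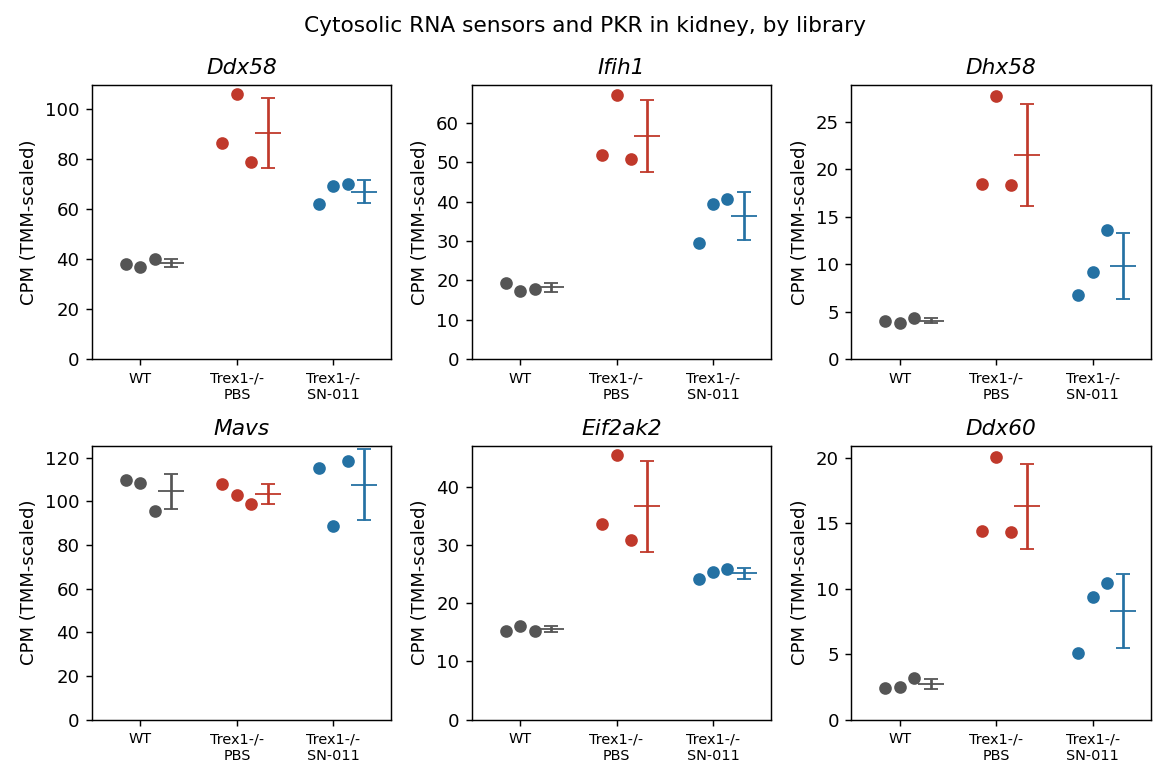
CPM of each gene (vertical axes, TMM-scaled, from 0) in the 3 libraries of WT, Trex1-/- PBS and Trex1-/- SN-011 (points), with the group mean and SD beside them. For Ddx58, Ifih1, Dhx58, Eif2ak2 and Ddx60 the SN-011 libraries lie between the WT and PBS libraries with no overlap, and the Mavs libraries overlap at 88.9 to 118 CPM.

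Ddx58 (ENSMUSG00000040296; GRCm38 chromosome 4, 40203773 to 40239828, minus strand) encodes RIG-I, which recognises short double-stranded RNA with a 5′ triphosphate. It had 38.2, 36.9 and 40.1 CPM in WT, 86.6, 106 and 79.1 CPM with PBS, and 61.9, 69.3 and 70.0 CPM with SN-011. Its 3 groups did not overlap, with WT lowest and PBS highest. The log2 fold change of PBS against WT was 1.24 (SE 0.112, edgeR adjusted p 0.000334), where WT averaged 38.4 ± 1.63 CPM and PBS 90.6 ± 14 CPM (SD, n = 3).

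Ifih1 (ENSMUSG00000026896; chromosome 2, 62595798 to 62646255, minus strand) encodes MDA5, the sensor of long double-stranded RNA. It had 19.4, 17.3 and 17.9 CPM in WT, 51.8, 67.1 and 50.8 CPM with PBS, and 29.4, 39.3 and 40.5 CPM with SN-011. WT libraries were again lowest and PBS libraries highest. The rise in PBS was 1.63 (log2, SE 0.149, edgeR adjusted p 0.000334), with means of 18.2 ± 1.08 CPM in WT and 56.6 ± 9.16 CPM in PBS (SD, n = 3).

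Dhx58 (ENSMUSG00000017830; chromosome 11, 100694884 to 100704271, minus strand) encodes LGP2. It was scarce in WT, at 4.06, 3.75 and 4.34 CPM, and reached 18.5, 27.7 and 18.3 CPM with PBS and 6.74, 9.16 and 13.6 CPM with SN-011. The SN-011 libraries were widely spread, but the highest (13.6 CPM) was below the lowest PBS library (18.3 CPM). The lowest (6.74 CPM) was above the highest WT library (4.34 CPM). The log2 fold change of PBS against WT was 2.41 (SE 0.261, edgeR adjusted p 0.000871). The antisense gene Dhx58os covers 4.31% of its exonic bases and had 1 to 10 counts per library, against 75 to 474 for Dhx58.

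Ddx60 (ENSMUSG00000037921; chromosome 8, 61928087 to 62038244, plus strand) was the least abundant in WT, at 2.45, 2.53 and 3.18 CPM. It had 14.4, 20.0 and 14.4 CPM with PBS and 5.10, 9.33 and 10.4 CPM with SN-011. Its rise in PBS, 2.58 (log2, SE 0.272, edgeR adjusted p 0.000727), was the largest of the 6 genes. With the Y-linked term it was 2.39, just below 2.42 for Dhx58. All 3 groups were apart, the highest SN-011 library lying below both lower PBS libraries.

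Eif2ak2 (ENSMUSG00000024079; chromosome 17, 78852564 to 78882573, minus strand) encodes PKR, which halts translation by phosphorylating eIF2 alpha. It had 15.3, 16.1 and 15.3 CPM in WT, 33.6, 45.5 and 30.8 CPM with PBS, and 24.1, 25.3 and 25.9 CPM with SN-011. Its SN-011 libraries were the closest together of the 5 genes. The log2 fold change of PBS against WT was 1.23 (SE 0.137, edgeR adjusted p 0.00102). Genes on the opposite strand cover 4.32% of its exonic bases, and the largest of them, Gm26637, had 3 to 30 counts per library.

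Mavs (ENSMUSG00000037523; chromosome 2, 131234063 to 131248025, plus strand), the adaptor that both sensors need, had 110, 109 and 95.4 CPM in WT, 108, 103 and 98.8 CPM with PBS, and 115, 88.9 and 118 CPM with SN-011. The groups overlapped in every pair. The log2 fold changes were -0.02 for PBS against WT (SE 0.115, edgeR adjusted p 0.959), 0.06 for SN-011 against PBS (SE 0.116, adjusted p 0.881) and 0.04 for SN-011 against WT (SE 0.115, adjusted p 0.891). These signs turned under some alternatives, with values of -0.15 to 0.18 over the Y-linked term fits.

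The 5 calls in PBS against WT held in all 16 alternatives, with an edgeR adjusted p up to 0.00426 for Ddx58, 0.00418 for Ifih1, 0.00923 for Dhx58, 0.00840 for Ddx60 and 0.0105 for Eif2ak2. With the Y-linked term, the log2 fold changes were 1.18, 1.59, 2.42, 2.39 and 1.24 in the same order. Among libraries with Y-linked reads alone, 3 of PBS and 1 of WT, they were 1.18, 1.66, 2.31, 2.35 and 1.26, which rest on WT replicate 3 and are given without a test.

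SN-011 against PBS in Trex1-/- mice was the second comparison. The same 5 genes were lower with SN-011, by 0.43 to 1.13 on the log2 scale, and none was called. The call rule found 0 of 16646 genes in this comparison, so 0% were called lower. All 5 had an unadjusted edgeR p under 0.05, as did 5.68% of all genes in this direction, and in all 5 every SN-011 library was below every PBS library, as in 8.41% of all genes.

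Dhx58 had the largest difference, from 21.5 ± 5.36 to 9.83 ± 3.47 CPM (SD, n = 3), with a log2 fold change of -1.13 (SE 0.245, edgeR adjusted p 0.210). Ddx60 followed at -0.97 (SE 0.251, adjusted p 0.242), from 16.3 ± 3.25 to 8.29 ± 2.82 CPM. Ifih1 was at -0.64 (SE 0.145, adjusted p 0.210), from 56.6 ± 9.16 to 36.4 ± 6.10 CPM. PKR transcript Eif2ak2 was at -0.54 (SE 0.135, adjusted p 0.241), from 36.6 ± 7.79 to 25.1 ± 0.946 CPM. Ddx58 had the smallest difference of the 5, at -0.43 (SE 0.110, adjusted p 0.241), from 90.6 ± 14 to 67.1 ± 4.50 CPM.

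Other tests called some of them. The DESeq2 Wald test called Ifih1 (adjusted p 0.0187), Dhx58 (0.00312) and Ddx60 (0.027), with 0.559% of all genes called lower. Without the filter on low counts, edgeR called the same 3 genes, where 0.236% of all genes were called lower. The edgeR exact test called Ifih1 (adjusted p 0.0338) and Dhx58 (0.0105), with 0.433% of all genes called lower. Without SN-011 replicate 2, Ifih1 was called (edgeR adjusted p 0.0464), where 2.29% of all genes were called lower. Without PBS replicate 2 the differences were -0.30 for Ddx58, -0.35 for Eif2ak2, -0.49 for Ifih1, -0.79 for Ddx60 and -0.90 for Dhx58 (edgeR adjusted p 0.65 for each). Over all 9 fits that left out a library, they ran from -0.52 to -0.30 for Ddx58, -0.65 to -0.35 for Eif2ak2, -0.71 to -0.49 for Ifih1, -1.17 to -0.72 for Ddx60 and -1.43 to -0.90 for Dhx58. Same-numbered PBS and SN-011 libraries deviated together, and with the replicate number as a block in the 6 libraries none of the 6 genes was called (edgeR adjusted p 0.196 to 0.897), where 5 of 16096 genes were. With the Y-linked term the differences were -1.14 for Dhx58, -0.78 for Ddx60, -0.59 for Ifih1, -0.55 for Eif2ak2 and -0.38 for Ddx58 (edgeR adjusted p 0.298 to 0.431). In the fit of libraries with Y-linked reads alone, 3 of PBS and 1 of SN-011, they were -1.21 for Dhx58, -0.78 for Ddx60, -0.50 for Ifih1, -0.51 for Eif2ak2 and -0.36 for Ddx58, which rest on SN-011 replicate 2 and are given without a test.

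**Figure D2:**
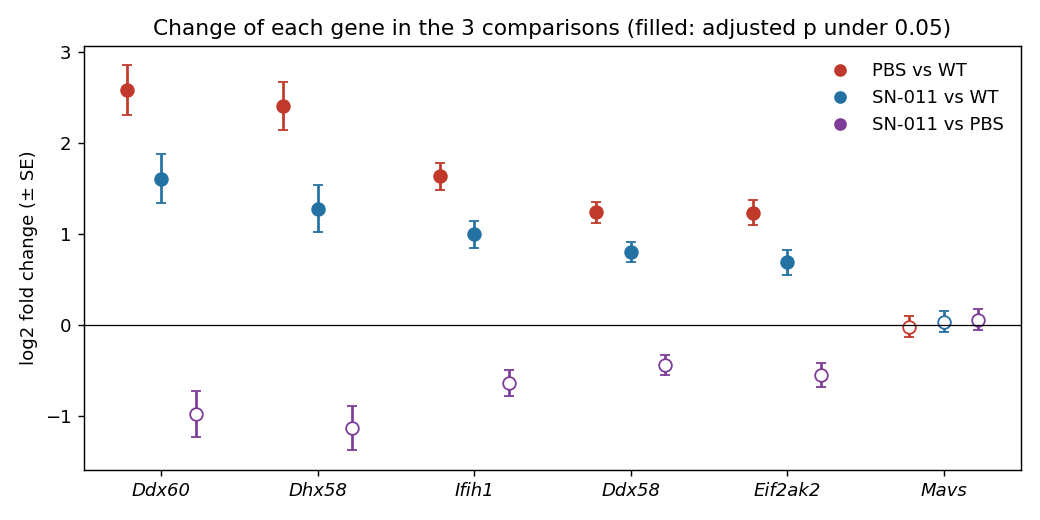
Log2 fold change of each gene (vertical axis, bars ± SE) in the 3 comparisons, from 1 edgeR fit of 9 libraries, with filled points for an adjusted p under 0.05. Ddx60 and Dhx58 have the largest changes in PBS against WT, at 2.58 and 2.41, and Mavs lies near 0 in all 3. The comparisons share libraries.

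SN-011 against WT was the third comparison, and it asked what stayed high under the antagonist. The same 5 genes were called higher, by 1.61-fold to 3.05-fold, where 0.823% of all genes were called higher. In each of the 5, every SN-011 library was above every WT library, as in 11.8% of all genes. The log2 fold changes were 1.61 for Ddx60 (SE 0.272, edgeR adjusted p 0.0238), 1.28 for Dhx58 (SE 0.261, adjusted p 0.0479), 1.0 for Ifih1 (SE 0.148, adjusted p 0.0137), 0.81 for Ddx58 (SE 0.112, adjusted p 0.0103) and 0.69 for Eif2ak2 (SE 0.137, adjusted p 0.0438).

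These calls were lost under more alternatives than those of PBS against WT. None of the 5 was called without WT replicate 1 (edgeR adjusted p 0.0572 to 0.150) or without WT replicate 2 (0.0618 to 0.174), where 0.171% and 0.177% of all genes were called higher. Dhx58 was also not called without WT replicate 3 (adjusted p 0.0792), PBS replicate 1 (0.0828), 2 (0.0532) or 3 (0.0724), or SN-011 replicate 3 (0.0701). A replicate block in all 9 libraries lost it too, where 0.847% of all genes were called higher. In the fit of 6 libraries neither Dhx58 (0.124) nor Ddx60 (0.0946) was called, where 0.221% of all genes were called higher. Eif2ak2 was also not called without WT replicate 3 (0.0918), PBS replicate 1 (0.0793), or SN-011 replicate 1 (0.0705), 2 (0.0536) or 3 (0.0718). The log2 fold changes ran from 0.77 to 0.86 for Ddx58, 0.91 to 1.13 for Ifih1, 0.98 to 1.49 for Dhx58, 0.67 to 0.72 for Eif2ak2 and 1.41 to 1.87 for Ddx60 over the 16 alternatives.

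With the Y-linked term all 5 were called, at edgeR adjusted p of 0.00438 to 0.0283, where 2.03% of all genes were called higher. Among libraries without Y-linked reads, 2 of each group, Ddx58 had 61.9 and 70.0 CPM with SN-011 against 38.2 and 36.9 CPM in WT. In the fit of those libraries the log2 fold change was 0.81 for Ddx58 (edgeR adjusted p 0.00767), 0.93 for Ifih1 (0.0272) and 0.67 for Eif2ak2 (0.0247), all called, where 1.09% of all genes were called higher. It was 1.38 for Dhx58 (0.0778) and 1.64 for Ddx60 (0.0595), which were not called.

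The members were unequal in level. Per kilobase of exon, Mavs led in WT at 31.2 ± 2.36 CPM per kb, followed by Ddx58 (5.44 ± 0.231), Eif2ak2 (3.04 ± 0.0957), Ifih1 (2.23 ± 0.133), Dhx58 (1.24 ± 0.0903) and Ddx60 (0.313 ± 0.0462), each SD over 3 libraries. No neighbours in that order overlapped in WT. With PBS the order of the means was the same, but Eif2ak2 (7.16 ± 1.52 CPM per kb), Ifih1 (6.93 ± 1.12) and Dhx58 (6.57 ± 1.64) overlapped. With SN-011, Ifih1 (4.46 ± 0.747) overlapped with both Eif2ak2 (4.91 ± 0.185) and Dhx58 (3.0 ± 1.06).

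Ratios between members show how unequal the changes were. The ratio of Dhx58 to Ddx58, both in CPM per kb, averaged 0.227 ± 0.00717 in WT (SD, n = 3), 0.507 ± 0.0514 in PBS and 0.313 ± 0.095 in SN-011. The 3 groups did not overlap, although the lowest SN-011 library (0.235) was next to the highest WT library (0.233). The ratio of Ifih1 to Ddx58 went from 0.410 ± 0.0273 in WT to 0.539 ± 0.0198 with PBS. The ratio of Eif2ak2 to Ddx58 was 0.560 ± 0.0397 in WT and 0.554 ± 0.0313 with PBS. Exact two-sided permutation tests gave p of 0.1 for Dhx58 to Ddx58 and for Ifih1 to Ddx58 in PBS against WT, the smallest that 3 against 3 libraries allow, and 0.8 for Eif2ak2 to Ddx58 (0.15 and 0.8 adjusted over 15 tests of 5 ratios).

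Within the Trex1-/- groups the 5 genes ordered the libraries alike. PBS replicate 2 was highest for 5 of 5 genes and PBS replicate 3 was lowest for 5 of 5, and SN-011 replicate 3 was highest and SN-011 replicate 1 lowest for 5 of 5. In WT the highest library differed among genes. Over the 9 libraries, Pearson's r of log2 CPM between pairs of these genes ran from 0.963 to 0.991 in 10 pairs, and from -0.130 to -0.025 in the 5 pairs with Mavs. These r describe 9 shared libraries whose groups differ, and they carry no test.

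Markers of immune cells are given beside these values. The sum of 6 macrophage markers was 131 to 146 CPM in WT, 200 to 219 CPM with PBS and 123 to 183 CPM with SN-011. That of 6 T cell markers was 5.23 to 9.30, 15.1 to 24.2 and 8.39 to 17.5 CPM, so that PBS and SN-011 overlapped. The sum of 4 B cell markers was 1.93 to 3.52, 1.28 to 2.18 and 0.85 to 2.2 CPM, and that of 3 neutrophil markers 2.12 to 6.25, 5.84 to 9.93 and 5.61 to 11.4 CPM, and none of the 2 B cell and 3 neutrophil markers that passed the filter was called. Of the 12 macrophage and T cell markers, C1qa, C1qb, Cd3g and Cd4 were called higher in PBS against WT, none of the 12 was called in SN-011 against PBS or SN-011 against WT, and no marker of either type was at 0 in all libraries. PBS replicate 3, the lowest of its group for the 5 genes, had the highest sums of both marker lists in that group (219 and 24.2 CPM), while PBS replicate 2, the highest for the 5 genes, had 203 and 15.1 CPM. With SN-011, replicate 1 was the lowest of its group for the 5 genes and for both sums (123 and 8.39 CPM), while replicate 3, the highest for the 5 genes, had 153 and 16.4 CPM, below replicate 2 (183 and 17.5 CPM). Of the 6 proximal tubule markers, 1 was called in PBS against WT, the transporter Slc5a2, which fell by 0.71 on the log2 scale (edgeR adjusted p 0.0163). Their sums overlapped, at 8890 to 9290 CPM in WT and 7840 to 9410 CPM with PBS. The sum of 4 distal nephron markers was 10300 to 11900 CPM in WT, 9020 to 9510 CPM with PBS and 9420 to 10500 CPM with SN-011, with none of the 4 called, nor any of 3 podocyte and 4 endothelial markers. The part of these cell types in the members' levels was not tested, and in bulk kidney more cells of a type and more RNA per cell cannot be told apart.

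**Figure D3:**
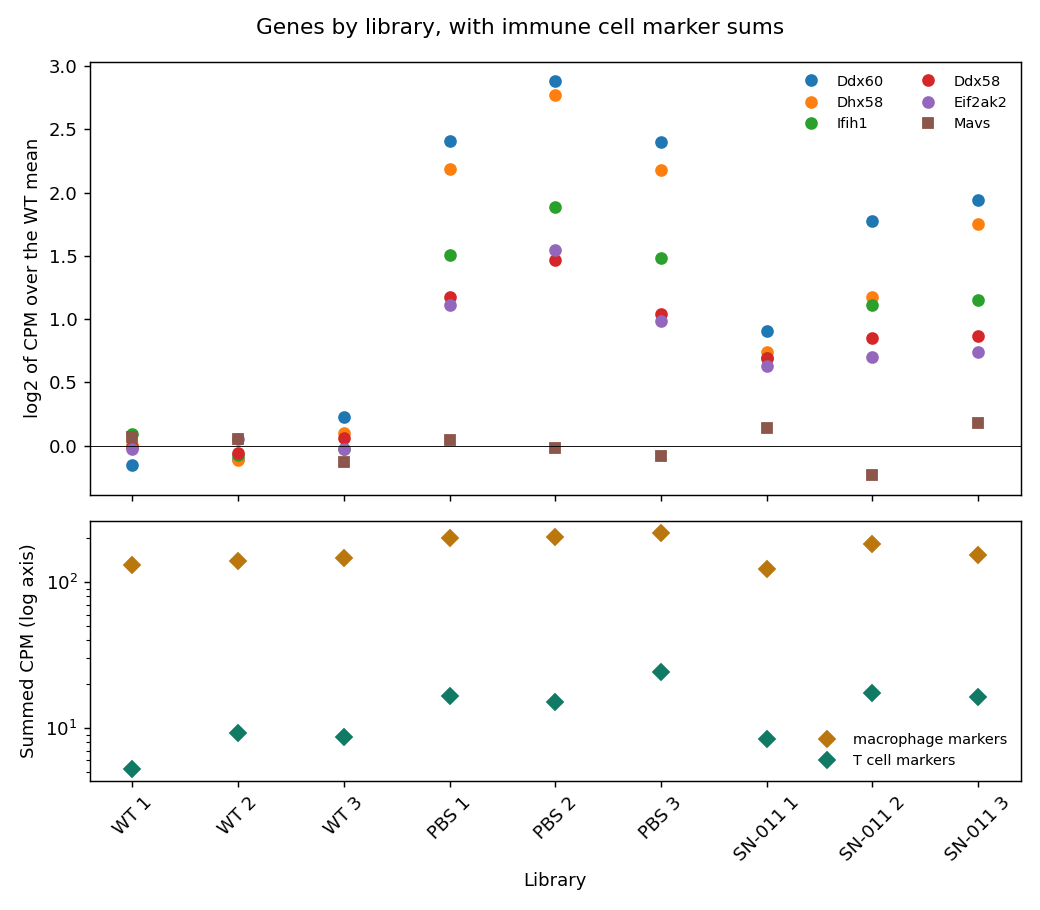
Upper panel, log2 of each gene's CPM over its WT mean (vertical axis) in each of the 9 libraries. Lower panel, summed CPM of 6 macrophage and 6 T cell markers in the same libraries (log axis). PBS replicate 2 is highest for the 5 genes other than Mavs, while PBS replicate 3 is lowest for them and has the highest marker sums in its group. SN-011 replicate 1 is lowest in its group for the 5 genes and for both marker sums.

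The genes most like each member over the 9 libraries, by Pearson's r of log2 CPM among 14836 other genes averaging 1 CPM or more, were named for comparison. For Ddx58 they were Stat2 (0.998), Parp14 (0.996) and Oasl2 (0.993), and for Ifih1 they were Ifit1 (0.994), Parp12 (0.994) and Dtx3l (0.993). For Dhx58 they were Gm20559 (0.995), Ifit2 (0.994) and Dtx3l (0.991). For Ddx60 they were Dtx3l (0.996), Parp9 (0.995) and Gm12250 (0.994), and for Eif2ak2 they were Parp12 (0.992), Stat2 (0.987) and Mx1 (0.985). For Mavs they were Grhl2 (0.979), Ybx2 (0.974) and Gpatch1 (0.974). These were picked as the highest r, so their size is no test.

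The signalling genes around RIG-I and MDA5 were then examined, from ubiquitin ligases and MAVS partners to kinases, transcription factors and inhibitors. Of 37 genes, all tested, 4 rose in PBS against WT and none fell, a share of 10.8% against 1.88% of all genes called in either direction. At an unadjusted edgeR p under 0.05, 12 were higher and 0 lower, as were 7.63% and 7.58% of all genes. In 16 of the 37 every PBS library stood above every WT library, and in 0 below, as in 13.1% and 12.3% of all genes. The median log2 fold change of the 37 was 0.14, against 0.0028 over all genes. Irf7, the interferon-induced transcription factor that amplifies interferon output, rose by 3.08 (log2, SE 0.266, edgeR adjusted p 0.000237), with 27.4 ± 8.77 CPM in WT and 232 ± 35.9 CPM in PBS (SD, n = 3). Nlrc5, an activator of MHC class I genes also described as an inhibitor of this pathway, rose by 1.87 (adjusted p 0.00133). Zc3hav1, the antiviral zinc finger protein ZAP, rose by 1.25 (adjusted p 0.000366), and Trim25, the ubiquitin ligase that serves RIG-I and ZAP, rose by 0.67 (adjusted p 0.00414).

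The kinases and Irf3 were not called. Tbk1 was at 0.24 (edgeR adjusted p 0.294, unadjusted p 0.0373, as 15.2% of all genes had one under 0.05). Its PBS libraries all stood above its WT libraries, as for 16 of the 37 genes and 13.1% of all genes. Ikbke was at 0.15 (adjusted p 0.696) and Irf3 at 0.01 (adjusted p 0.981), with 62.7 ± 6.66 CPM of Irf3 in WT and 63.0 ± 2.65 CPM with PBS. With SN-011 against PBS, edgeR called 0 of the 37 genes, and 8 (2 higher, 6 lower) had an unadjusted p under 0.05, as did 11.4% of all genes. Without SN-011 replicate 2 it called 2 of 37, where 3.05% of all genes were called. Irf7 averaged 98.2 ± 27.4 CPM in SN-011 libraries and its log2 fold change was -1.24 (adjusted p 0.203). It and the death adaptor Fadd, at -0.57 (adjusted p 0.203), were the 2 genes called by the DESeq2 Wald test and by the edgeR exact test, which called 1.1% and 0.763% of all genes. With SN-011 against WT, Irf7 (1.84, adjusted p 0.0103), Nlrc5 (1.53, adjusted p 0.0110) and Zc3hav1 (0.85, adjusted p 0.00928) were called (8.11%, against 1.28% of all genes called in either direction), and Trim25 was at 0.35 (adjusted p 0.0933). The DESeq2 Wald test called these 3 and Trim25, where 4.9% of all genes were called. That count of 3 was 1 without WT replicate 1 and 0 without WT replicate 2, where 0.224% and 0.283% of all genes were called.

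**Figure D4:**
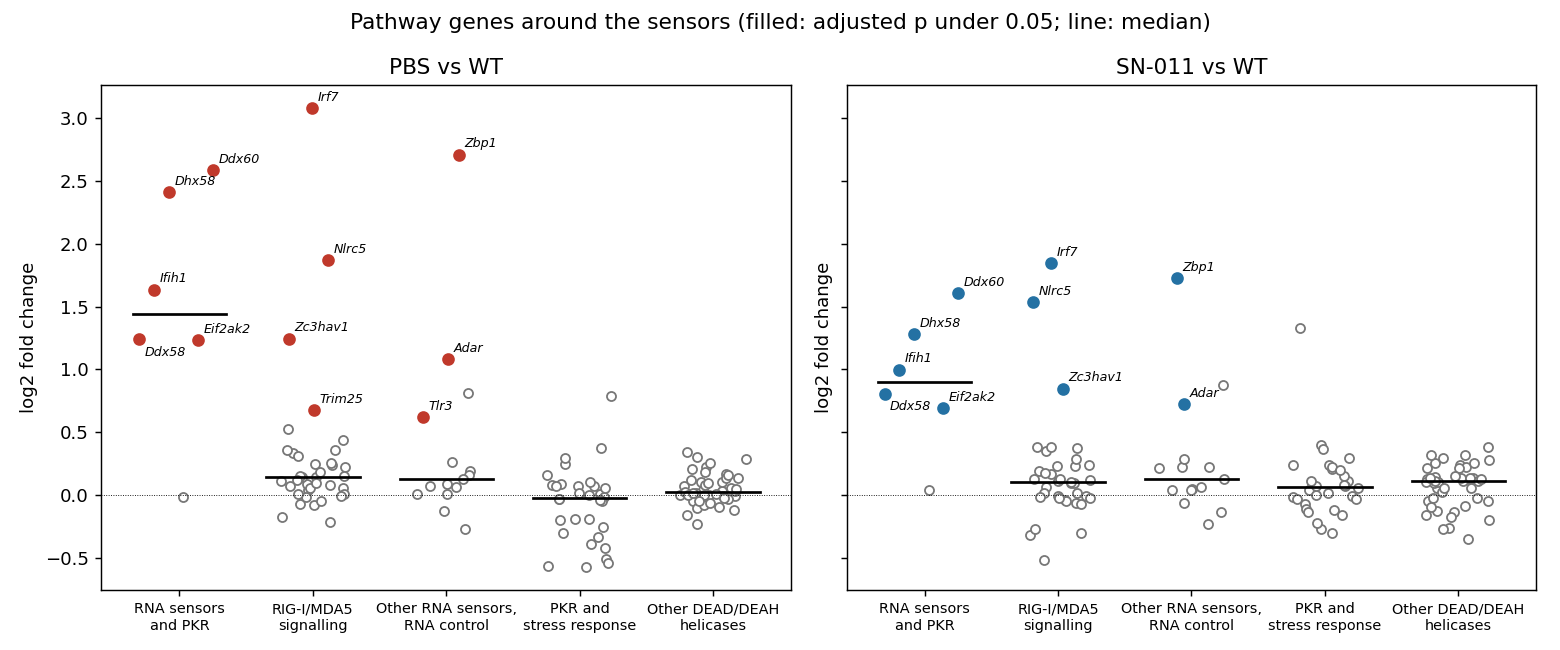
Log2 fold change (vertical axis) of every tested gene of the 5 lists, for PBS against WT on the left and SN-011 against WT on the right, with filled points for an edgeR adjusted p under 0.05 and a line at each list's median. The called genes are named, and the stress-response list and the other DEAD and DEAH helicases have none.

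Other RNA sensors and genes that limit double-stranded RNA included 15 genes, of which 3 rose in PBS against WT and none fell (20%, against 1.88% of all genes called in either direction). Zbp1, a sensor of Z-form nucleic acid, rose by 2.71 (SE 0.313, edgeR adjusted p 0.0013), from 4.02 ± 1.59 to 26.0 ± 6.22 CPM (SD, n = 3). Adar, the editing enzyme that marks cellular double-stranded RNA as self, rose by 1.08 (SE 0.127, adjusted p 0.00141), from 31.5 ± 0.831 to 66.6 ± 13.3 CPM. Tlr3, the endosomal sensor of double-stranded RNA, rose by 0.62 (SE 0.128, adjusted p 0.0384), and was not called with the Y-linked term (adjusted p 0.14). The count of 3 was 2 without any 1 of the PBS or WT libraries, in fits that called 0.897% to 2.68% of all genes in either direction. The other RNA editing gene Adarb1 was at -0.13 (adjusted p 0.751), the Ski helicase Skiv2l at 0.01 (adjusted p 0.954) and Dicer1 at 0.16 (adjusted p 0.428).

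With SN-011 the endosomal sensor Tlr3 stood at 15.8 ± 1.90 CPM, against 15.3 ± 1.5 CPM in WT and 23.6 ± 2.59 CPM with PBS. Its log2 fold change against PBS was -0.58 (edgeR adjusted p 0.210), and it was the 1 gene of this list that the DESeq2 Wald test and the edgeR exact test called, while edgeR's quasi-likelihood test called 0 of 15 and 3, all lower, had an unadjusted p under 0.05 (11.4% of all genes in either direction). Against WT, Adar (0.73, adjusted p 0.0268) and Zbp1 (1.72, adjusted p 0.0308) were called with SN-011. Neither was called without WT replicate 1, WT replicate 2 or PBS replicate 1, which gave 0 genes of the list, and 1 gene of the list was called without PBS replicate 3, SN-011 replicate 1 or 3, or WT replicate 3. Those 7 fits called 0.224% to 1.6% of all genes.

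The stress response downstream of PKR was examined by its regulators, the other eIF2 alpha kinases, the eIF2 and eIF2B subunits, and transcription factors and targets such as Atf4 and Ddit3. Of 33 genes, 32 were tested, and the edgeR fit of all 9 libraries without a covariate called none in any comparison. It gave 4, 8 and 5 at an unadjusted p under 0.05 in PBS against WT, SN-011 against PBS and SN-011 against WT, beside 15.2%, 11.4% and 18% of all genes. All 8 in SN-011 against PBS were higher with SN-011, as were 5.77% of all genes. All 5 in SN-011 against WT were higher, as were 9.88% of all genes. In PBS against WT 1 was higher and 3 were lower, as were 7.63% and 7.58% of all genes. The DESeq2 Wald test called 0, 0 and 1 (Ppp1r15b), where it called 4.36%, 1.1% and 4.9% of all genes, and the edgeR exact test 0 in each. Without SN-011 replicate 2, edgeR called 3 in SN-011 against PBS and 1 in SN-011 against WT, with 3.05% and 2.21% of all genes. With the Y-linked term, edgeR called Ddit4 lower in PBS against WT (-1.36, adjusted p 0.0281), against -0.54 without the term. That fit also called Ppp1r15b higher in SN-011 against WT (0.39, adjusted p 0.0447). It called 1.19% and 3.94% of all genes in these comparisons. The list's median log2 fold change was -0.02 in PBS against WT, 0.14 in SN-011 against PBS and 0.07 in SN-011 against WT, against 0.0028, -0.0053 and -0.0034 over all genes. In PBS against WT, values of single genes were as follows. The PKR substrate Eif2s1 was at 0.06 (edgeR adjusted p 0.812), the PKR activator Prkra at -0.03 (adjusted p 0.926), Atf4 at -0.19 (adjusted p 0.519), Ddit3 at -0.04 (adjusted p 0.913) and the phosphatase subunit Ppp1r15a at 0.30 (adjusted p 0.329). In SN-011 against PBS the same genes were at -0.02, -0.23, 0.26, 0.41 and -0.05 (edgeR adjusted p 0.281 to 0.965). There, every SN-011 library stood above every PBS library in 8 of the 32 genes and below in 1, as in 7.74% and 8.41% of all genes. These are transcript levels, and the phosphorylation of eIF2 alpha was not measured.

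The rest of the DEAD and DEAH box helicase family served as relatives of Ddx58, Dhx58 and Ddx60. Of 48 other protein-coding genes named Ddx or Dhx, leaving out the sex-linked pair Ddx3x and Ddx3y, 45 were tested. None was called by edgeR in PBS against WT, where 3 had an unadjusted p under 0.05 (15.2% of all genes), the edgeR exact test called 0 and the DESeq2 Wald test called 1 (Ddx24; 4.36% of all genes). Their log2 fold changes ran from -0.23 to 0.34 with a median of 0.02, while the lowest among Ddx58, Dhx58 and Ddx60 was 1.24. Dhx9, another helicase that binds double-stranded RNA, was at -0.04 (adjusted p 0.854), with 118 ± 6.49 CPM in WT and 115 ± 8.98 CPM with PBS. In SN-011 against PBS and SN-011 against WT, edgeR called 0 of 45 in each, with 3 and 7 at an unadjusted p under 0.05 (11.4% and 18% of all genes), the exact test called 0 in each, and DESeq2 called 0 and 3 (1.1% and 4.9% of all genes). Without SN-011 replicate 3, edgeR called 1 in SN-011 against WT, where it called 1.6% of all genes.

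The interferon genes that the sensors induce were hardly read. Of 19 type I and type III interferon genes, 2 had any read, and none passed the filter. Ifnb1 and every Ifna gene were listed at 0 counts in all 9 libraries, which allows up to 0.137 to 0.186 CPM per library (3 counts of each total, counting error only). Ifnk had 0 to 9 counts and Ifnl3 up to 2 counts per library. Only uniquely mapped pairs were counted, so reads shared by near-identical Ifna genes would be missing, and these zeros cover counted reads only.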

How the data were processed

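The 9 mouse kidney libraries of polyA RNA, strand-specific per the methods, were sequenced as read pairs. After trimming by Trimmomatic and alignment by hisat2 (mm10, per the labels), the authors deposited raw counts of uniquely mapped pairs per Ensembl gene from featureCounts. Versions, annotation and the strand setting of the counting are not given in the sources used here. A pair shared by exons of more than 1 gene is left unassigned at the default setting.

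Of 54532 identifiers, 54495 matched GENCODE vM21 (GRCm38), which gave symbols, positions and exon lengths. The tools were edgeR 4.0.16 and R 4.3.3. After filterByExpr (minimum count 10, minimum total 15) and TMM scaling, the 9 libraries were fitted jointly by quasi-likelihood, each group having its own mean. Standard errors were derived from the F statistic, and p-values were Benjamini-Hochberg adjusted over all 16646 genes. Steps were tested on simulated data. Log2 CPM used a prior count of 2.

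Alternatives were DESeq2 1.42.0 size factors, its Wald test, the edgeR exact test (the study names a negative binomial test of edgeR), no filter beyond 1 read, a fit of 6 libraries, a replicate block, the Y-linked term (Ddx3y, Kdm5d, Eif2s3y and Uty above 10 CPM) and leaving out each library. Fits within libraries with or without Y-linked reads and a blocked fit of the 6 Trex1-/- libraries were added after seeing the data. No source states what the replicate numbers mark. Deviations from the group means correlated at 0.135 to 0.305 in the 3 same-numbered PBS and SN-011 pairs, all over 0.1. The 6 other pairs of those groups ran from -0.277 to 0.109. This was taken as pairing in that comparison, although the ranges nearly meet. Same-numbered pairs were at -0.0338 to 0.171 with PBS and WT and -0.357 to 0.313 with SN-011 and WT, which was not taken as pairing. The members and lists were chosen with earlier results of these data known. Genes named are the members, the called genes of each list with the smallest p (up to 6), fixed pathway genes, interferon genes and the 3 most correlated genes of each member. Skiv2l, Adarb1, Dicer1, Fadd, Ppp1r15b, Ddit4, Ddx24 and the markers were named after their values were seen.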

Additional observations from a re-analysis of the deposited data

How the results depend on the processing

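Over 16 alternatives, the 5 calls in PBS against WT kept direction and threshold. In SN-011 against PBS, 3 genes were called with DESeq2's Wald test, 2 with the exact test, 3 without the filter and 0 to 1 when a library was left out. In SN-011 against WT, 3 were called in the fit of 6 libraries, 3 within libraries without Y-linked reads and 0 to 4 when a library was left out. The cause was not tested.

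Over all genes, the calls in PBS against WT numbered 726 (Wald), 686 (exact), 707 (no filter), 751 (6 libraries), 198 (Y-linked term) and 153 to 774 with a library left out, against 313. In SN-011 against PBS they were 183, 127, 127 and, within libraries with Y-linked reads, 107 (1 SN-011 library, its spread taken from PBS), and 0 to 519 with a library left out (519 without SN-011 replicate 2), against 0. In SN-011 against WT they were 816, 597, 607, 43 (6 libraries), 656 (Y-linked term), 461 (libraries without Y-linked reads) and 38 to 376, against 213.

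Of the signalling genes, the Wald test called 2, the exact test 2 and the unfiltered fit 1 in SN-011 against PBS, with 0 to 2 when a library was left out, and 0 to 3 in SN-011 against WT. Of the other RNA sensors and control genes, 1 was called by each of the Wald, exact and unfiltered tests in SN-011 against PBS. In SN-011 against WT, 1 was called in the fit of 6 libraries and 0 to 2 with a library left out. Of the stress-response genes, 1 was called in PBS against WT in the fit of 6 libraries and 1 with the Y-linked term. In SN-011 against PBS 0 to 3 were called with a library left out. In SN-011 against WT 1 was called by the Wald test, with the Y-linked term and within libraries without Y-linked reads, and 0 to 1 with a library left out. Of the other helicases, the Wald test called 1 in PBS against WT and 3 in SN-011 against WT, where the Y-linked term gave 1 and leaving out a library 0 to 1.

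The fits within libraries with Y-linked reads hold 1 WT and 1 SN-011 library, whose spread is taken from PBS, so only their log2 fold changes are given.

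Mavs changed sign without being called. In PBS against WT its log2 fold change was 0.18 with the Y-linked term, 0.11 within libraries with Y-linked reads and -0.083 to 0.012 with a library left out. In SN-011 against PBS these were -0.15, -0.19 and -0.0084 to 0.17. In SN-011 against WT leaving out a library gave -0.033 to 0.16.

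With a replicate block in all 9 libraries, members called were 5, 0 and 4 in the 3 comparisons, Dhx58 in SN-011 against WT being lost (1.25, edgeR adjusted p 0.0584), and genes called were 312, 0 and 231. In SN-011 against PBS, the block in 6 libraries gave 5 genes and no other changed call. The effect of depth was not tested, and the lowest count of a member in a library was 52, for Ddx60.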

Other observations

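Among promoter windows of genes called higher in Trex1-/- PBS against WT, 64 of 209 windows (30.6%) held GAAA, any 2 bases, GAAA, against 416 of 14827 windows (2.81%) of the other genes tested. For the variant with 1 base between both copies the shares were 13.4% and 2.38%. For TTC, any 3 bases, GAA they were 14.4% and 6.83%. These shares include the members, are given as descriptions with no test, and some genes have more than 1 window.

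The reads of Ifnk, an interferon of epithelia, were 9, 4 and 2 counts in SN-011 replicates 2, 3 and 1, and 0, 0 and 2 counts in PBS replicates 1, 2 and 3. WT replicate 3 had 1 count and WT replicates 1 and 2 had 0. These counts were too few for a test.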
